A study of Mus musculus with 15 samples.

Results

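The net state of mouse primary hepatocytes given glucagon and interleukin-13 (IL-13) together was set against that of cells given vehicle, with 3 RNA sequencing libraries in each group. These 6 libraries come from a series of 15, in 5 groups of 3: glucagon with IL-13, glucagon, cAMP with IL-13, cAMP, and vehicle. Cells with IL-13 received it at 10 ng/mL for 2 h, and 100 nM glucagon was then added for 3 h with IL-13 kept in the medium. The vehicle cells received neither, and the 3 libraries with glucagon alone served to tell which genes the hormone itself had moved. All groups were wild-type hepatocytes freshly isolated by collagenase digestion of the liver. The strain label counts up sample by sample from C57BL/6, while the methods name BALB/c mice, so the strain is not settled. Whether the libraries within a group stem from different mice or culture wells is not stated, and the p-values therefore cover the variation among these libraries alone, part or all of which may be technical. Cells given IL-13 with neither glucagon nor cAMP were not among the groups, so an IL-13 effect that needs such a stimulus cannot be told apart from one that does not. The vehicle columns fit their group but no single sample, and the letters a, b and c name them here.

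Glucagon is the hormone of fasting. It binds a receptor that raises cAMP, and protein kinase A then phosphorylates CREB, which switches on gluconeogenic enzymes and early genes such as the Nr4a nuclear receptors. IL-13, a cytokine of type 2 immunity, binds a receptor made of IL-13Rα1 and IL-4Rα, and the JAK kinases on it phosphorylate STAT6 and STAT3. The STAT factors in turn induce their own inhibitors, the Cish and Socs genes.

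The values are scaled reads, in which the estimated reads of every gene in a library carry the same multiplier. The libraries held 15567578 to 20333612 estimated reads with glucagon and IL-13, 17389752 to 18838894 with glucagon alone and 17984464 to 23654914 with vehicle. Vehicle library a stood apart from the rest of the series. Of 8250 well-expressed genes, 86 were more than 2-fold lower in it than in the other libraries of its group and 4 were more than 2-fold higher, whereas no other library of the series had more than 11 such lower genes, so named results whose call it changed are given with and without it. The cells carried hepatocyte markers at 1106500 to 1149200 summed scaled reads with both signals and 1030100 to 1147300 with vehicle. Kupffer cell markers summed to 6288 to 6341 with both signals and 6404 to 6666 with vehicle, and 1 of the 15 tested, Lyz2, passed the test, as a fall. Lyz2 was no longer called when vehicle library a (adjusted p = 0.069) or c (adjusted p = 0.11) was left out. The same held for each library with both signals (adjusted p = 0.054 to 0.13). Of 13 sinusoidal endothelial markers 3 rose (Fcgr2b, Pecam1 and Stab2) and 2 fell (Kdr and Lyve1), with sums of 2663 to 2887 with both signals and 2286 to 2987 with vehicle. Stab2 was not called without vehicle library a (adjusted p = 0.074) or without library 1 (adjusted p = 0.071) or 2 (adjusted p = 0.054) of the cells with both signals. Fcgr2b lost its call under 8 of 15 alternatives, and Kdr lost it without vehicle library b (adjusted p = 0.063) or c (adjusted p = 0.064). None of the 9 tested stellate cell markers passed the test, and no lymphocyte marker reached the filter. In such bulk samples fewer cells of a type and less RNA per cell cannot be told apart.

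Cells given both signals differed from vehicle cells in 2613 of 12703 tested genes, of which 1365 rose and 1248 fell (limma, adjusted p under 0.05; called genes hereafter). That is 20.6% of the genes, with 10.7% called higher and 9.82% called lower. When libraries were scaled to equal totals the split turned to 1053 rises and 1582 falls. In 4019 genes, 31.6% of those tested, the 3 libraries with both signals lay wholly above or wholly below the 3 vehicle libraries. Changes past 2-fold were fewer, with 222 rises and 117 falls. Leaving out vehicle library a gave 2919 called genes, 2209 of them also called with it. For comparison, glucagon alone moved 2399 genes (18.9%) against the same vehicle libraries, and IL-13 added to glucagon moved 728 genes (5.73%). Without vehicle library a these counts were 3098 and 1218. That library enters the comparison of IL-13 added to glucagon only through the shared estimate of the spread.

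The largest rises, taken among genes with a mean of at least 100 scaled reads, included known targets of cAMP and glucose-producing genes. Slc7a2, Klf4, Socs3, Etnppl and Cish, treated further on, were among them too. Nr4a3, a nuclear receptor induced within the hour by cAMP, had 1356, 1298 and 1160.3 scaled reads with glucagon and IL-13, against 4.2, 4.78 and 6.65 with vehicle, a log2 difference of 7.7 ± 0.11 (SE; adjusted p = 6.5e-19). Its relative Nr4a1 had 2662, 2807 and 2507 scaled reads with glucagon and IL-13, against 302, 341 and 335 with vehicle, a 8.13-fold rise on the log2(scaled reads + 1) scale (adjusted p = 5.8e-16). Nr4a2 had 186, 193 and 199.8 scaled reads with glucagon and IL-13, against 13.6, 18.3 and 23.8 with vehicle (log2 difference 3.34 ± 0.14; adjusted p = 2.8e-12). None of the 3 receptors overlapped between the groups, and with glucagon alone they stood at log2 differences of 7.51, 3.07 and 3.24. Ppargc1a, the coactivator PGC-1α that drives fasting metabolism, had 404, 404 and 393 scaled reads with glucagon and IL-13, against 25.2, 45.5 and 54.2 with vehicle (log2 difference 3.3 ± 0.19; adjusted p = 8.2e-09). Vehicle library a was the lowest for Ppargc1a, and without it the log2 difference was 2.99.

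**Figure D1:**
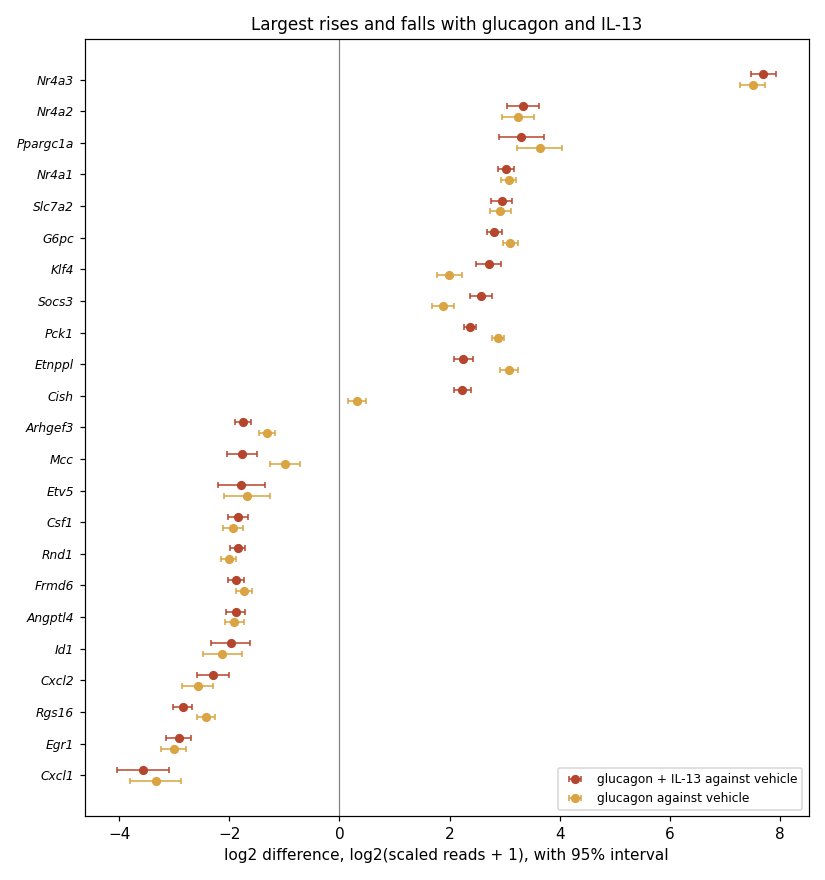
Of the 12 largest rises 11, and the 12 largest falls, with glucagon and IL-13 against vehicle among genes with a mean of at least 100 scaled reads (red) and the same genes with glucagon alone against vehicle (yellow), as log2 differences with 95% intervals; both sets share the 3 vehicle libraries. Nr4a3 stands farthest right at 7.70 and Cxcl1 farthest left at -3.57, and Cish is the gene whose rise of 2.23 is far from its value of 0.32 with glucagon alone.

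The promoters of these targets are shown because they carry TGACG, the core of the motif that CREB binds (both strands searched). The stretches are RefSeq sequence of build GRCm38.p6, written 5′ to 3′ on the strand of the gene with the core in capitals, and the Pck1 stretch holds the core that begins 90 bases before the start site. The Nr4a1 stretch (chr15:101266757-101266830, plus strand) has 2 cores, the Nr4a3 stretch (chr4:48045072-48045182, plus strand) has 4 and the Pck1 stretch (chr2:173152963-173153007, plus strand) has 1.
Nr4a1: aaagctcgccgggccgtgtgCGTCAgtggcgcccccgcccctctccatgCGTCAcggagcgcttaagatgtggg
Nr4a3: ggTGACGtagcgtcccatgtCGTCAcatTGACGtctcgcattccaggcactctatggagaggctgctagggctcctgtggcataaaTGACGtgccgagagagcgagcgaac
Pck1: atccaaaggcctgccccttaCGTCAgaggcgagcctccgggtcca
The core occurred in the 250 bases before the start site of 17.8% of all 32851 promoters on hand. It was in 30.5% of the tested genes with a promoter there, and in 31.9% of those that glucagon alone raised at least 1.5-fold. A match thus describes the sequence and is no evidence of binding.

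Of 31 cAMP and CREB target genes, all tested, 16 rose and 8 fell. Their median log2 difference was 0.38, beside 0.0096 over all tested genes. The counts of this and every later list are to be read beside the 10.7% of all tested genes called higher and 9.82% called lower. Crem, whose short products repress cAMP-driven promoters, had 1177, 1069 and 1216 scaled reads with glucagon and IL-13, against 326, 262 and 286 with vehicle (log2 difference 1.99 ± 0.078; adjusted p = 1.3e-12). Sik1, a kinase that shuts CREB coactivators out of the nucleus, had 9558, 9683 and 8488 scaled reads with glucagon and IL-13, against 2309.8, 2939 and 2784 with vehicle (log2 difference 1.79 ± 0.083; adjusted p = 4.7e-11). The members that fell included Fos, which had 319, 356 and 376 scaled reads with glucagon and IL-13, against 768, 781 and 726 with vehicle, and Gadd45a, a stress-induced growth arrest gene, which had 1246, 1299 and 1290.2 scaled reads with glucagon and IL-13, against 3655, 3034 and 3289.6 with vehicle. Their log2 differences were -1.11 ± 0.074 and -1.37 ± 0.062, with no overlap between the groups in either.

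The gluconeogenic genes G6pc and Pck1 remained well above vehicle in the presence of IL-13. G6pc, the enzyme that releases free glucose, had 498, 505 and 498 scaled reads with glucagon and IL-13, 619.6, 607 and 602 with glucagon alone and 76.6, 67 and 67.5 with vehicle. It therefore stood 7.04-fold above vehicle (log2 difference 2.82 ± 0.064; adjusted p = 7.7e-16), below the log2 difference of 3.1 ± 0.064 with glucagon alone. Pck1, which commits oxaloacetate to glucose, had 5667, 5875 and 5679 scaled reads with glucagon and IL-13, 8136, 8188 and 8339 with glucagon alone and 1142, 1192 and 1015 with vehicle. Every library with both signals lay below every glucagon library and above every vehicle library for G6pc and for Pck1. The log2 difference of Pck1 from vehicle was 2.36 ± 0.051 with both signals (adjusted p = 5.7e-16) and 2.88 ± 0.051 with glucagon alone. Cells with both signals differed from those with glucagon alone by -0.52 ± 0.051 (log2; adjusted p = 2.6e-06).

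Of 22 gluconeogenesis genes, 21 were tested, 11 rose and 2 fell, with a median log2 difference of 0.15. The list holds G6pc and Pck1, the genes of chief interest to the study, so its direction is no independent evidence. Slc25a25, a mitochondrial carrier of ATP and phosphate, had 5699, 5774 and 5559 scaled reads with glucagon and IL-13, against 1635, 1841 and 1889 with vehicle and showed no overlap (log2 difference 1.67 ± 0.052; adjusted p = 6.4e-14). Fbp1, which removes a phosphate from fructose bisphosphate, had 5704, 5871 and 5930.0 scaled reads with glucagon and IL-13, against 5992, 5368 and 4563 with vehicle. Its groups overlapped, with a log2 difference of 0.15 ± 0.070 (95% interval -0.0017 to 0.29; adjusted p = 0.17), although without vehicle library a the value was 0.24 (adjusted p = 0.0035). Pcx, the pyruvate carboxylase, had 10824, 11085 and 9852 scaled reads with glucagon and IL-13, against 8359, 10446 and 9141 with vehicle (log2 difference 0.19 ± 0.065; adjusted p = 0.048), which lost its call without vehicle library a at 0.11 (adjusted p = 0.16). Pcx also lost its call without vehicle library c (adjusted p = 0.11), without library 1 of the group with both signals (adjusted p = 0.15) and without its library 2 (adjusted p = 0.19). The upstream factor Hnf4a gave a log2 difference of 0.11 ± 0.065 (95% interval -0.029 to 0.25; adjusted p = 0.28), against a rise of 0.39 ± 0.065 with glucagon alone. Foxo1, the insulin-restrained activator of these enzymes, gave 0.013 ± 0.083 (95% interval -0.16 to 0.19; adjusted p = 0.94).

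Among enzymes and carriers that feed amino acids into glucose and urea, rises outnumbered falls. Of 34 such genes 12 rose and 2 fell, at a median log2 difference of 0.081. Slc7a2, which imports arginine and lysine, had 9166, 8762 and 9047 scaled reads with glucagon and IL-13, 9851, 8622 and 8189 with glucagon alone and 968, 1278 and 1283 with vehicle. The libraries with both signals lay within the range of the glucagon libraries for Slc7a2, and it stood 7.7-fold above vehicle (log2 difference 2.95 ± 0.089; adjusted p = 3.5e-13). Tat, the tyrosine aminotransferase, had 6422, 6709.5 and 6654 scaled reads with glucagon and IL-13, 12160, 11786 and 11570 with glucagon alone and 2295, 2408 and 2297 with vehicle. Tat thus rose to a log2 difference of 1.5 ± 0.041 with both signals (adjusted p = 1.0e-14), against 2.34 ± 0.041 with glucagon alone. Got1, an aspartate aminotransferase, had 8159, 8294 and 8276 scaled reads with glucagon and IL-13, against 3036, 2814 and 2889 with vehicle (log2 difference 1.5 ± 0.040; adjusted p = 1.0e-14). Among FOXO targets, a list the study drew attention to on these samples, 13 of 37 tested genes rose and 9 fell, at a median of 0.062. Irs2, the insulin receptor substrate, had 1449.7, 1417 and 1194 scaled reads with glucagon and IL-13, against 220.4, 432 and 448 with vehicle, a log2 difference of 1.95 ± 0.21 that became 1.61 without vehicle library a, and Klf15, a fasting factor, had 148, 141 and 159.9 scaled reads with glucagon and IL-13, against 66.1, 81.3 and 72.2 with vehicle (log2 difference 1.03 ± 0.093; adjusted p = 1.4e-07). Igfbp1, a hepatic binding protein of insulin-like growth factors, fell, with 4559, 4579.8 and 4629.9 scaled reads with glucagon and IL-13, against 7556, 7204 and 7662 with vehicle (log2 difference -0.70 ± 0.041; adjusted p = 4.0e-10).

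The feedback inhibitors of cytokine signalling did not all move the same way. Cish, a STAT-induced inhibitor, had 1429, 1366 and 1340.1 scaled reads with glucagon and IL-13, 340.2, 362 and 396 with glucagon alone and 271, 299.9 and 309 with vehicle. The group with both signals lay far above the other groups for Cish, at a log2 difference of 2.23 ± 0.074 from vehicle (adjusted p = 1.4e-13), against 0.32 ± 0.074 with glucagon alone. Socs3, which blocks JAK activity, had 699, 743 and 578 scaled reads with glucagon and IL-13, 371, 459 and 426 with glucagon alone and 104, 123 and 110.2 with vehicle. Socs3 rose with glucagon alone and rose further with both, to 2.57 ± 0.095 (adjusted p = 5.2e-13). The Socs3 promoter, shown because the gene rose with both signals, holds 1 match to the STAT motif TTCNNNGAA (both strands searched, match in capitals; chr11:117969492-117969540, minus strand), which 7.02% of all promoters share:
Socs3: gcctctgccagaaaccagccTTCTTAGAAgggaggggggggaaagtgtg
Socs2, an inhibitor of growth hormone signalling, went the other way, with 522, 491 and 558 scaled reads with glucagon and IL-13, 385, 422 and 385 with glucagon alone and 1059, 853 and 941 with vehicle. All 3 libraries with both signals were above the glucagon libraries and below the vehicle libraries for Socs2 (log2 difference from vehicle -0.86 ± 0.082; adjusted p = 2.8e-07). Socs1 was scarce, with 16.2, 22 and 25 scaled reads with glucagon and IL-13, against 35.7, 35.9 and 40.9 with vehicle (log2 difference -0.82 ± 0.25; adjusted p = 0.027), and it lost its call without vehicle library b (adjusted p = 0.052), vehicle library c (adjusted p = 0.083), library 1 (adjusted p = 0.13) or library 2 (adjusted p = 0.054) of the cells with both signals.

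Of 28 STAT feedback and STAT6 target genes 19 were tested, of which 7 rose and 4 fell, with a median log2 difference of 0.039. Pim1, a STAT-induced survival kinase, had 3713, 3888 and 3661 scaled reads with glucagon and IL-13, 2313, 2395 and 2250.4 with glucagon alone and 1817, 2040.0 and 1949 with vehicle (log2 difference from vehicle 0.96 ± 0.051; adjusted p = 1.1e-10). Mrc1, the mannose receptor, had 97, 94.2 and 87.4 scaled reads with glucagon and IL-13, against 56.7, 51.8 and 56.1 with vehicle (log2 difference 0.75 ± 0.15; adjusted p = 0.00099). Myc, a growth-promoting transcription factor on the same list, fell, with 2632, 2616 and 2655 scaled reads with glucagon and IL-13, against 4698, 4829 and 4952 with vehicle (log2 difference -0.87 ± 0.050; adjusted p = 2.9e-10). The classic macrophage targets Ccl11, Ccl17 and Retnla were at 0 in all 6 libraries. Ccl24, an eosinophil-attracting chemokine of low level, had 14.3, 14.7 and 16.2 scaled reads with glucagon and IL-13, against 5.25, 0.797 and 0.950 with vehicle (log2 difference 2.52 ± 0.54; adjusted p = 0.0022).

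Most genes of the receptor and its transducers did not pass the test. Of 21 receptor, JAK and STAT genes 19 were tested, 4 rose and 3 fell, beside 10.7% of all tested genes called higher and 9.82% lower. Il13ra1 had 830.5, 803 and 806 scaled reads with glucagon and IL-13, against 889, 809 and 944 with vehicle (log2 difference -0.11 ± 0.097, 95% interval -0.32 to 0.091; adjusted p = 0.47). Il4ra had 752, 699 and 706 scaled reads with glucagon and IL-13, against 611, 699 and 619.5 with vehicle (log2 difference 0.16 ± 0.074, 95% interval 0.0059 to 0.32; adjusted p = 0.14). Stat6 overlapped between the groups (-0.13 ± 0.059, log2; adjusted p = 0.15), whereas Stat3 rose, with 5011, 4844 and 4629 scaled reads with glucagon and IL-13, against 2951, 3596 and 3709.6 with vehicle (log2 difference 0.50 ± 0.066; adjusted p = 1.7e-05). Stat3 stood at 0.58 ± 0.066 with glucagon alone.

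The 12 largest falls, taken among genes with a mean of at least 100 scaled reads, included chemokines, early genes and feedback genes. Cxcl1, a neutrophil chemokine, had 17.1, 15.7 and 26.2 scaled reads with glucagon and IL-13, against 282, 207 and 231 with vehicle, 11.8-fold lower (log2 difference -3.57 ± 0.22; adjusted p = 8.8e-10). Cxcl2, its close relative, had 54.2, 41.9 and 56.2 scaled reads with glucagon and IL-13, against 274, 248 and 236 with vehicle (log2 difference -2.3 ± 0.14; adjusted p = 4.3e-10). Csf1, the macrophage growth factor, had 430.0, 465 and 381 scaled reads with glucagon and IL-13, against 1408, 1653 and 1521 with vehicle (log2 difference -1.84 ± 0.087; adjusted p = 1.4e-11). None of these overlapped between the groups. The chemokine Ccl20, below that level, had 4.76, 5.24 and 8.74 scaled reads with glucagon and IL-13, against 65.1, 62.2 and 61.8 with vehicle (log2 difference -3.18 ± 0.41; adjusted p = 1.2e-05). Of 28 inflammation and NF-κB targets 26 were tested, 17 fell and 3 rose, and the median log2 difference was -0.52. With glucagon alone 18 of the same genes fell against the same vehicle libraries, at a median of -0.50. Icam1, an adhesion receptor, had 1853, 1876 and 1777 scaled reads with glucagon and IL-13, against 3296, 3663 and 3602 with vehicle (log2 difference -0.94 ± 0.057; adjusted p = 5.6e-10), and Tnfaip3, an inhibitor of NF-κB, had 521, 499 and 503 scaled reads with glucagon and IL-13, against 936, 1092 and 1102 with vehicle (log2 difference -1.03 ± 0.074; adjusted p = 5.7e-09).

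Egr1, an immediate early transcription factor, had 324, 243 and 295 scaled reads with glucagon and IL-13, against 1989.8, 2234 and 2302 with vehicle (log2 difference -2.92 ± 0.10; adjusted p = 3.9e-13). Ier2, another early gene, had 572, 540.3 and 508 scaled reads with glucagon and IL-13, against 1474, 1392 and 1398 with vehicle (log2 difference -1.4 ± 0.085; adjusted p = 7.0e-10). Of 24 AP-1 and EGR early genes 23 were tested, 12 fell and 5 rose, so the list did not move one way, and the 5 that rose were Fosb, Fosl2, Junb, Jund and Klf4. Rgs16, which damps signalling of G protein-coupled receptors, had 98, 109.9 and 111 scaled reads with glucagon and IL-13, 141, 145 and 144 with glucagon alone and 821, 758 and 741 with vehicle. It fell by more with both signals, at -2.85 ± 0.079 (adjusted p = 1.3e-14), than with glucagon alone, at -2.42 ± 0.079, and that step of -0.43 ± 0.079 passed the test (adjusted p = 0.0024). Dusp6, a phosphatase that switches off ERK, had 640.2, 669 and 687 scaled reads with glucagon and IL-13, 903, 842 and 846 with glucagon alone and 1853, 1797 and 1839.6 with vehicle (log2 difference from vehicle -1.46 ± 0.054; adjusted p = 5.1e-13). Of 24 growth factor feedback genes 13 fell and 1, Dusp1, rose, with a median log2 difference of -0.36. Id1, a target of BMP signalling, had 40.9, 48.2 and 43.7 scaled reads with glucagon and IL-13, against 201, 175 and 157 with vehicle (log2 difference -1.98 ± 0.17; adjusted p = 5.4e-08). Angptl4, an inhibitor of lipoprotein lipase, had 283, 270.1 and 269 scaled reads with glucagon and IL-13, against 974, 1042 and 1022 with vehicle (log2 difference -1.88 ± 0.081; adjusted p = 4.6e-12). The rest of the 12 largest falls at that level were in Rnd1 and Frmd6, at log2 differences of -1.85 and -1.88, in Etv5 at -1.78, in Mcc at -1.77 and in Arhgef3 at -1.75.

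To ask which genes were back at vehicle level, the genes that glucagon alone had moved were followed. Glucagon moved 733 genes (5.77% of those tested) by at least 1.5-fold with a call, 356 up and 377 down. A gene counted as back when IL-13 moved it the opposite way with a call and the 95% interval of its difference from vehicle lay within 1.3-fold either way. By that rule 9 genes were back, 5 of them raised and 4 lowered by glucagon. Another 60 had come part of the way, 29 raised and 31 lowered. In 510 genes, 69.6% of the 733, the glucagon effect was kept, which means still called against vehicle and not called against glucagon alone. A missing call does not show that IL-13 left a gene unmoved, and the rule for back is stricter, so these counts are not like for like. A further 45 had moved on in the same direction, 37 up and 8 down, and 2 had gone past vehicle. The remaining 107 could not be placed. Without vehicle library a 765 genes were followed, of which 484 were kept, 88 had come part of the way and 62 had moved on. All of these outcomes rest on comparisons that share the vehicle and the glucagon libraries. The median log2 difference from vehicle of the 356 raised genes was 0.91 with both signals and 0.93 with glucagon alone, and that of the 377 lowered genes was -0.72 with both signals and -0.82 with glucagon alone.

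**Figure D2:**
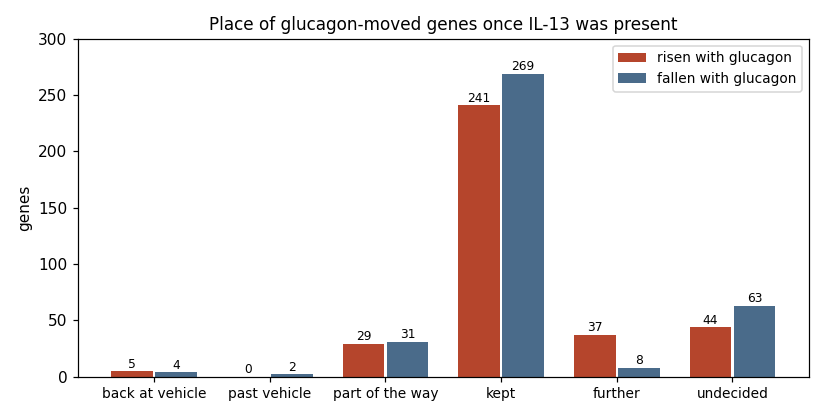
Number of genes (y axis) by where they stood with glucagon and IL-13, among the 733 genes that glucagon alone moved at least 1.5-fold; red bars are genes raised and blue bars genes lowered by glucagon. Kept genes are 241 raised and 269 lowered, beside 9 back at vehicle level. Kept asks for no call against glucagon alone, whereas back asks for a call and a narrow interval. These counts are therefore not like for like.

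The 5 glucagon-raised genes that were back at vehicle level included a pair with a textbook tie to glucagon action. Rapgef4 encodes EPAC2, an exchange factor that cAMP activates directly, and had 1004, 932 and 1050.4 scaled reads with glucagon and IL-13, 1642, 1526 and 1479 with glucagon alone and 859.5, 981 and 1069.9 with vehicle. The libraries with both signals fell among the vehicle libraries for Rapgef4, below every glucagon library, with a log2 difference from vehicle of 0.041 ± 0.074 (95% interval -0.11 to 0.20) and from glucagon alone of -0.64 ± 0.074 (adjusted p = 1.9e-05). Ppp1r3c encodes PTG, a subunit that brings protein phosphatase 1 to glycogen, and had 112, 114 and 132 scaled reads with glucagon and IL-13, 227, 209.8 and 232 with glucagon alone and 107, 106 and 129 with vehicle. Glucagon alone raised Ppp1r3c by 0.97 ± 0.11 (log2; adjusted p = 3.9e-06), and with both signals the difference from vehicle was 0.069 ± 0.11 (95% interval -0.17 to 0.31).

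Tbcel, a tubulin-destabilising protein, had 1465, 1439 and 1385 scaled reads with glucagon and IL-13, 2124, 2029 and 1941 with glucagon alone and 1304, 1274 and 1442 with vehicle, a log2 difference from vehicle of 0.095 ± 0.057 with both signals. Tfcp2l1, a transcription factor of the CP2 family, had 1188, 1076 and 1013 scaled reads with glucagon and IL-13, 1951, 1741 and 1620.5 with glucagon alone and 829, 1204 and 1358 with vehicle. Its vehicle libraries were wide apart, with library a lowest, and the log2 difference from vehicle was -0.022 ± 0.14, or -0.23 (adjusted p = 0.047) without that library. Rnf225, a RING finger gene, had 440.4, 405 and 392 scaled reads with glucagon and IL-13, 629, 596 and 600.0 with glucagon alone and 342, 388 and 360.1 with vehicle. Every library with both signals was slightly above every vehicle library for Rnf225 (log2 difference 0.18 ± 0.072; adjusted p = 0.083), and without vehicle library b it was called higher (0.23; adjusted p = 0.046).

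**Figure D3:**
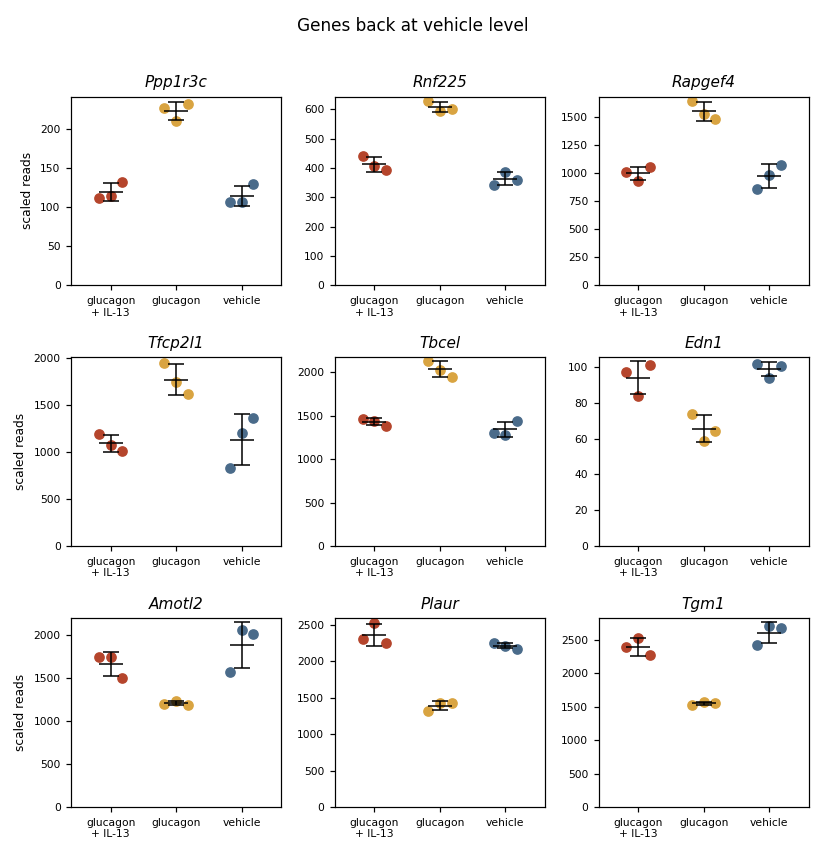
Scaled reads (y axis, from 0) of the 9 genes back at vehicle level in each library; points are libraries, dashes are means and bars are SD (n = 3). In each panel the glucagon libraries stand off to 1 side while the libraries with both signals sit near the vehicle libraries, for example at 1004, 932 and 1050 against 860, 981 and 1070 for Rapgef4.

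The 4 glucagon-lowered genes that were back were Plaur, Tgm1, Amotl2 and Edn1. Plaur, the urokinase receptor, had 2300.2, 2529 and 2248 scaled reads with glucagon and IL-13, 1318, 1429 and 1422 with glucagon alone and 2248, 2214 and 2175 with vehicle. Its glucagon libraries were all below the rest, and with both signals it was level with vehicle at a log2 difference of 0.091 ± 0.055 (95% interval -0.025 to 0.21; against glucagon alone 0.76 ± 0.055, adjusted p = 6.8e-08). Tgm1, a transglutaminase that cross-links proteins in skin, had 2392, 2533 and 2269 scaled reads with glucagon and IL-13, 1526, 1578 and 1554 with glucagon alone and 2426, 2713 and 2679 with vehicle. Tgm1 was 0.63 ± 0.057 above glucagon alone on the log2 scale (adjusted p = 1.1e-06) and -0.12 ± 0.057 from vehicle (95% interval -0.24 to 0.00014). Without vehicle library a its difference from vehicle was -0.17 (adjusted p = 0.028), called but still within the margin. The Tgm1 promoter is shown as the gene of this group with 2 matches to TTCNNNGAA before the start site, in capitals (chr14:55713528-55713685, minus strand):
Tgm1: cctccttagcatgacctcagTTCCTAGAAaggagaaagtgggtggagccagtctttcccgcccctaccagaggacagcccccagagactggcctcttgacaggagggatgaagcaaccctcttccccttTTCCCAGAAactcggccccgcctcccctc
Amotl2, a junction protein that holds YAP, had 1745, 1742 and 1499 scaled reads with glucagon and IL-13, 1199, 1236 and 1189 with glucagon alone and 1573, 2059.9 and 2009 with vehicle (log2 difference from vehicle -0.17 ± 0.088), and without vehicle library a it was called below vehicle at -0.30 (adjusted p = 0.0035). Edn1, the endothelin precursor, was below the level set for naming genes and had 97, 83.8 and 101 scaled reads with glucagon and IL-13, 73.9, 58.8 and 64 with glucagon alone and 102, 94.1 and 101 with vehicle, with a difference from vehicle of -0.076 ± 0.14.

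Placement near vehicle depended on the margin and on the smallest glucagon effect asked for. Plaur, Tgm1 and Rapgef4 met the rule under all 18 alternative fits, and Ppp1r3c and Rnf225 under 16. Tbcel and Tfcp2l1 met it under 14, Amotl2 under 10 and Edn1 under 7. Omitting vehicle library a left 10 genes back, of which 5 were shared with the 9. A wider margin of 1.5-fold gave 43 genes, and a smallest glucagon effect of 2-fold left 0. Just outside the 1.3-fold margin lay 24 genes that IL-13 had moved back with a call but whose interval reached too far. The nearest was Trp53inp1, a p53-induced gene, at a mean of 2123 scaled reads with both signals, 2903 with glucagon alone and 1833 with vehicle, and the next named above 100 scaled reads was Rragd, an activator of mTORC1 at the lysosome, at means of 164 with both signals, 243 with glucagon alone and 152 with vehicle. These genes, named for their place beside the margin after their values were seen, are given as a description.

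The 2 genes past vehicle were both lowered by glucagon. Duoxa2, a maturation factor of the peroxide-producing oxidase DUOX2, had 319, 332 and 363 scaled reads with glucagon and IL-13, 165, 155 and 169 with glucagon alone and 259, 232 and 247 with vehicle. The libraries with both signals were the highest of all 9 for Duoxa2 (log2 difference from vehicle 0.46 ± 0.10; adjusted p = 0.0032). Duoxa2 met the rule for this class under 14 of 18 alternative fits. It did not without vehicle library a or c, without glucagon library 2 or with a pseudocount of 5. Cux2, a homeodomain factor, was scarce, with 24.7, 31.4 and 20.0 scaled reads with glucagon and IL-13, 8.7, 3.33 and 8.26 with glucagon alone and 11.5, 13.6 and 14.3 with vehicle, and its difference from vehicle (adjusted p = 0.035) lost its call without vehicle library a (adjusted p = 0.080), b (adjusted p = 0.062) or c (adjusted p = 0.053), and without library 1 (adjusted p = 0.084) or library 2 (adjusted p = 0.15) of the cells with both signals. With no lower limit on the glucagon effect, 19 genes were called on opposite sides of vehicle with and without IL-13: 4 stood above vehicle with glucagon alone and below it with both, and 15 the other way round.

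Slc2a2, the glucose transporter GLUT2, was among those 4, with 774, 793 and 792 scaled reads with glucagon and IL-13, 1313, 1284 and 1304 with glucagon alone and 932, 949 and 856 with vehicle. Its libraries with both signals were the lowest and those with glucagon alone the highest, at log2 differences from vehicle of -0.21 ± 0.065 with both (adjusted p = 0.025) and 0.51 ± 0.065 with glucagon alone (adjusted p = 1.1e-05). Gpt2, the mitochondrial alanine aminotransferase, had 6935, 6976 and 6341 scaled reads with glucagon and IL-13, 10142, 10030 and 9509 with glucagon alone and 7092, 8053 and 8384 with vehicle. Gpt2 stood at -0.21 ± 0.057 from vehicle with both (adjusted p = 0.011) and 0.34 ± 0.057 with glucagon alone. In the other direction went Nfkb1, which encodes the p50 subunit of NF-κB and had 4387, 4603 and 4469 scaled reads with glucagon and IL-13, 2609, 2728 and 2639.8 with glucagon alone and 2764, 3312 and 3232 with vehicle, a log2 difference from vehicle of 0.54 ± 0.058 with both signals (adjusted p = 1.5e-06). The monocyte chemokine Ccl7 had 434, 395 and 466 scaled reads with glucagon and IL-13, 203, 191 and 219 with glucagon alone and 316, 240.0 and 251 with vehicle (log2 difference from vehicle 0.69 ± 0.11 with both; adjusted p = 9.6e-05). Nfkb1 and Ccl7 thus rose while most of their list fell. Junb and Chac1, an AP-1 subunit and a glutathione-degrading enzyme, also crossed upward, at 0.20 and 0.41 with both signals and -0.28 and -0.22 with glucagon alone.

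The 60 genes part of the way back kept a measurable distance from vehicle. Beside G6pc, Pck1, Tat and Socs2 they held Etnppl, an enzyme of ethanolamine phosphate breakdown, which had 675, 663 and 657 scaled reads with glucagon and IL-13, 1216, 1144 and 1179.5 with glucagon alone and 139, 160.3 and 121 with vehicle. Etnppl overlapped with neither other group, at a log2 difference from vehicle of 2.25 ± 0.079. Cpt1a, which admits fatty acids to mitochondria, had 1721, 1869 and 1699 scaled reads with glucagon and IL-13, 2487, 2276 and 2247 with glucagon alone and 944, 1132 and 1141 with vehicle (log2 difference from vehicle 0.72 ± 0.068; adjusted p = 2.2e-07). Pde4d, a phosphodiesterase that degrades cAMP, had 703, 659.6 and 698 scaled reads with glucagon and IL-13, 974, 898 and 884 with glucagon alone and 198, 223 and 238 with vehicle (log2 difference from vehicle 1.64 ± 0.068; adjusted p = 2.5e-12). Slc25a15, the ornithine carrier of the urea cycle, had 1759, 1717 and 1731 scaled reads with glucagon and IL-13, 2585, 2305 and 2388 with glucagon alone and 996, 988 and 1044 with vehicle (log2 difference from vehicle 0.78 ± 0.051; adjusted p = 1.6e-09). Among the raised genes closest to vehicle in this class were Oat, an ornithine aminotransferase, at 0.46 with both signals and 0.82 with glucagon alone, and Slc16a10, an aromatic amino acid transporter, at 0.50 and 0.97. Among the lowered genes Trib3, a pseudokinase of the stress response, stood at -0.38 with both signals and -0.88 with glucagon alone, Ajuba, a LIM protein of cell junctions, at -0.29 and -0.68, and Eepd1 at -0.42 and -1.07. Cxcl10, an interferon-induced chemokine, had 504, 488 and 541 scaled reads with glucagon and IL-13, 367, 352 and 374 with glucagon alone and 1582, 1260.0 and 1228 with vehicle (log2 difference from vehicle -1.4 ± 0.090; adjusted p = 1.2e-09).

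In 45 genes IL-13 took the glucagon effect farther from vehicle. Klf4, a zinc finger factor, had 711, 785 and 673 scaled reads with glucagon and IL-13, 433, 474 and 417 with glucagon alone and 88.2, 114 and 131 with vehicle, and each library with both signals exceeded each of the other 6 (log2 difference from vehicle 2.71 ± 0.11; adjusted p = 1.5e-12). Tgfbr1, the signalling receptor of TGF-β, had 1258, 1122 and 1199 scaled reads with glucagon and IL-13, 852, 689 and 784 with glucagon alone and 365, 413 and 438 with vehicle (log2 difference from vehicle 1.56 ± 0.092; adjusted p = 4.3e-10). Pdk4, which blocks pyruvate dehydrogenase in fasting, had 1719.9, 1683 and 1738 scaled reads with glucagon and IL-13, 1338, 1231 and 1231 with glucagon alone and 619, 639 and 669.9 with vehicle (log2 difference from vehicle 1.41 ± 0.054; adjusted p = 8.6e-13). Foxa1, a pioneer factor of liver enhancers, had 659, 677 and 658 scaled reads with glucagon and IL-13, 433, 498 and 459 with glucagon alone and 221, 274 and 325 with vehicle (log2 difference from vehicle 1.3 ± 0.10; adjusted p = 1.5e-08). The genes of this class that fell included Rgs16, Mcc, Arhgef3 and Dusp6, with values for Mcc of 59, 47.1 and 47.5 scaled reads with glucagon and IL-13, 88.1, 84.3 and 93 with glucagon alone and 163, 178 and 188 with vehicle.

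A separate set of 102 genes was away from vehicle only with both signals: called with at least 1.5-fold from vehicle, not called with glucagon alone, and called the same way against glucagon. Of these 75 rose and 27 fell. A missing call with glucagon alone does not show that glucagon left a gene unmoved. Tnfrsf21, a death receptor of the tumour necrosis factor family, had 732, 769 and 658 scaled reads with glucagon and IL-13, 251, 195 and 187 with glucagon alone and 179, 211 and 243 with vehicle. Rnf19b, a ubiquitin ligase of immune cells, had 6221, 6186 and 5662 scaled reads with glucagon and IL-13, 1698, 1840.0 and 1705 with glucagon alone and 1717, 1957 and 1850.0 with vehicle. For Tnfrsf21 and Rnf19b the glucagon and vehicle libraries intermingled and those with both signals stood clear, at log2 differences from vehicle of 1.77 ± 0.13 (adjusted p = 1.6e-08) and 1.71 ± 0.056 (adjusted p = 1.2e-13). Mmp13, a collagenase, had 166, 174 and 179.8 scaled reads with glucagon and IL-13, 58.7, 65.5 and 69.2 with glucagon alone and 58.8, 45.5 and 59.9 with vehicle (log2 difference from vehicle 1.66 ± 0.13; adjusted p = 2.3e-08). Pmm1, a phosphomannomutase, had 2425, 2572 and 2444 scaled reads with glucagon and IL-13, 1002, 999 and 1122 with glucagon alone and 1045, 993 and 906 with vehicle (log2 difference from vehicle 1.34 ± 0.064; adjusted p = 1.9e-11). Next came Col27a1, a fibrillar collagen, at 1.24 ± 0.15, Syt12, a synaptotagmin, at 0.98 ± 0.067, and Dock4, an activator of Rac, at 0.98 ± 0.12. Vehicle library a was the lowest for Dock4, whose difference was 0.78 without it.

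Clec7a, the β-glucan receptor dectin-1 and a known STAT6 target in macrophages, had 141, 174 and 161 scaled reads with glucagon and IL-13, 64.1, 62.1 and 57.8 with glucagon alone and 54.6, 47.8 and 50.4 with vehicle (log2 difference from vehicle 1.62 ± 0.13; adjusted p = 2.6e-08). Summed Kupffer cell markers did not rise with it, at the values given above, with the tissue-resident markers Clec4f and Timd4 among them, and the part of such cells in the Clec7a result was not tested. Its promoter is shown because it holds 1 match to the wider STAT motif, TTC and GAA with 4 bases between them (both strands searched, in capitals; chr6:129472881-129472930, minus strand), found in 5.85% of all promoters:
Clec7a: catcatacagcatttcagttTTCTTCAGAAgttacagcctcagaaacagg
This wider motif lay in 11 of the 54 promoters on hand for genes that rose only with both signals (20.4%), against 5.51% of tested genes, and TTCNNNGAA in 7 of the 54 (13.0%), against 7.36% of tested genes. The CREB core was in 14 of those 54 promoters (25.9%), against 30.5% of tested genes. Of the 9 genes back at vehicle, 1 held the core, 1 held TTCNNNGAA and 1 held the wider motif. These are descriptions of 250 bases per gene, with no test.

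**Figure D4:**
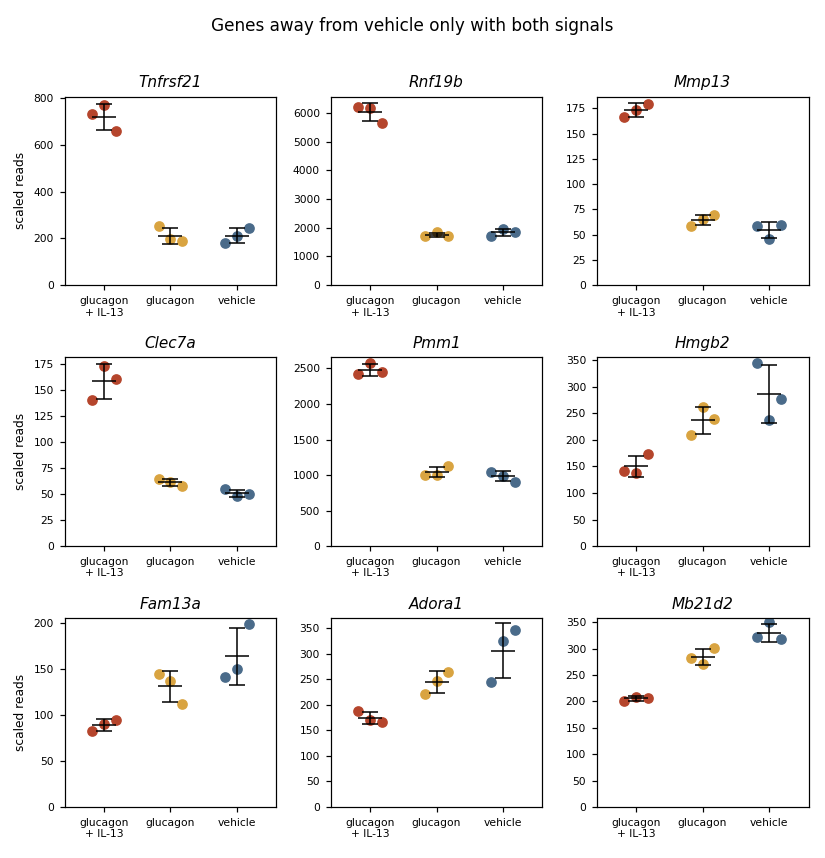
Scaled reads (y axis, from 0) of 5 genes that rose and 4 that fell only with both signals, in each library; points are libraries, dashes are means and bars are SD (n = 3). For the risen genes the libraries with both signals stand alone above the other groups, as for Pmm1 at 2425, 2572 and 2444 against 1045, 993 and 906 with vehicle.

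Further members with both signals only were secreted factors of the liver. Hamp, which encodes the iron hormone hepcidin, had 8714, 10134 and 10003 scaled reads with glucagon and IL-13, 5693, 5887 and 6068 with glucagon alone and 6608, 6184 and 5490.2 with vehicle (log2 difference from vehicle 0.66 ± 0.070; adjusted p = 1.0e-06). Fgf21, a fasting hormone, had 269, 283 and 247 scaled reads with glucagon and IL-13, 133, 159 and 145 with glucagon alone and 199, 162 and 141 with vehicle (log2 difference from vehicle 0.68 ± 0.11; adjusted p = 0.00012). The serpins Serpina3g and Serpina3f also rose, at 3.31 ± 0.44 and 1.28 ± 0.32, but they belong to a family of close copies among which reads can be split, so they are uncertain.

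The falls seen only with both signals were smaller. Hmgb2, a chromatin protein, had 141, 137 and 172 scaled reads with glucagon and IL-13, 209.8, 261 and 239 with glucagon alone and 344, 238 and 277 with vehicle (log2 difference from vehicle -0.92 ± 0.13; adjusted p = 2.7e-05). Leap2, a liver hormone that opposes ghrelin, had 154, 153 and 171 scaled reads with glucagon and IL-13, 246, 237 and 231 with glucagon alone and 271, 242 and 233 with vehicle (log2 difference from vehicle -0.64 ± 0.084; adjusted p = 1.7e-05). Inhbb, the activin B subunit, had 149, 186 and 149.9 scaled reads with glucagon and IL-13, 217, 299 and 221 with glucagon alone and 222, 266 and 269 with vehicle (log2 difference from vehicle -0.64 ± 0.12; adjusted p = 0.00073). In Leap2 and Inhbb the libraries with both signals were below every other library shown. Adora1, an adenosine receptor that lowers cAMP, had 188, 171 and 166 scaled reads with glucagon and IL-13, 221, 247 and 263 with glucagon alone and 245, 325 and 347 with vehicle (log2 difference from vehicle -0.79 ± 0.11; adjusted p = 4.5e-05). Fam13a, Mb21d2, Ddit4l and Actc1 completed the 8 largest, between -0.86 for Fam13a and -0.63 for Actc1. The clock repressor Bhlhe41 and the arrestin-like Arrdc3 belonged to the same set, at -0.63 and -0.59.

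The hepatocyte identity list holds transcription factors, plasma proteins and enzymes. Of 26 tested 8 rose and 2 fell, at a median log2 difference of 0.18. The 8 were the factors Cebpa, Foxa1, Foxa2, Foxa3, Onecut1 and Rxra, the plasma protein Ahsg and the urea cycle enzyme Ass1, of which Ahsg lost its call under 9 of 15 alternatives. Onecut1 (HNF6) had 149, 147 and 109 scaled reads with glucagon and IL-13, against 18.9, 36.7 and 38 with vehicle (log2 difference 2.13 ± 0.21; adjusted p = 1.0e-06), Foxa3 had 3518, 3534 and 3278 scaled reads with glucagon and IL-13, against 1960.4, 2062 and 2293 with vehicle (0.71 ± 0.063) and Cebpa had 2321, 2329.7 and 2186 scaled reads with glucagon and IL-13, against 1364, 1452 and 1409 with vehicle (0.69 ± 0.058). Alb, the albumin transcript, gave a log2 difference of 0.0043 (95% interval -0.084 to 0.092). Of 28 acute phase genes 4 rose and 4 fell, with a median of 0.059, beside 10.7% of all tested genes called higher and 9.82% lower. Of 36 interferon response genes 13 fell and 3 rose, at a median of -0.089, led by Cxcl10, then Irf1, an interferon-induced factor, with 374, 368 and 366 scaled reads with glucagon and IL-13, against 660.1, 656 and 635 with vehicle (log2 difference -0.81 ± 0.073; adjusted p = 1.1e-07).

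Lists of lipid and sugar metabolism had called members in both directions, beside 10.7% of all tested genes called higher and 9.82% called lower. Of 22 fatty acid synthesis genes 7 rose and 2 fell, of 28 oxidation genes 5 rose and 5 fell, and of 25 cholesterol genes 6 rose and 2 fell. Ppara, the receptor that governs oxidation, had 707, 690.0 and 628 scaled reads with glucagon and IL-13, against 340.0, 431 and 448 with vehicle (log2 difference 0.74 ± 0.087; adjusted p = 3.9e-06). Sqle, an epoxidase of sterol synthesis, had 6116, 6035 and 6255 scaled reads with glucagon and IL-13, against 3886, 4071 and 4217 with vehicle (log2 difference 0.60 ± 0.042; adjusted p = 5.1e-09), and Insig2, a brake on sterol synthesis, fell to 2942 ± 146 scaled reads with both signals (SD, n = 3) at a log2 difference of -0.41 ± 0.063. Insig1, the relative of Insig2 on the same list, rose at a log2 difference of 0.45 (limma, adjusted p = 8.0e-07). Of 20 glycogen genes only Ppp1r3b and Pygl rose and Stbd1 fell, the largest at -0.25. Ppp1r3b was not called without vehicle library a (log2 difference 0.12; adjusted p = 0.14) and lost its call under 8 of 15 alternatives, and Pygl lost its call under 7. Of 25 cytochrome P450 and bile acid genes 3 rose and 3 fell. Of 26 glycolysis genes 7 rose and 4 fell.

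Stress, clock and growth lists were mixed, beside 10.7% of all tested genes called higher and 9.82% called lower. Of 30 genes of the unfolded protein and amino acid stress response 5 rose and 5 fell, with Ddit3 (CHOP), a death-promoting factor, at 879.9, 932 and 930.5 scaled reads with glucagon and IL-13, against 1859, 1697 and 1752 with vehicle (log2 difference -0.95 ± 0.070; adjusted p = 7.4e-09). Of 21 clock genes 6 rose and 4 fell, among them Nr1d1, the repressor REV-ERBα, with 614, 635 and 681 scaled reads with glucagon and IL-13, against 846, 979 and 1005 with vehicle (log2 difference -0.55 ± 0.073; adjusted p = 1.9e-05), and Cry1, a repressor of the core clock, with 1222, 1219 and 1233 scaled reads with glucagon and IL-13, against 726, 843 and 896 with vehicle (log2 difference 0.58 ± 0.067; adjusted p = 3.4e-06). Of 24 TGF-β, BMP and YAP targets 8 rose and 8 fell. Smad7, an inhibitor of TGF-β signalling, had 797, 801 and 722 scaled reads with glucagon and IL-13, against 316, 368 and 426 with vehicle (log2 difference 1.07 ± 0.11; adjusted p = 6.0e-07), and Cyr61, a matrix protein induced by YAP, had 12887, 13232 and 13414 scaled reads with glucagon and IL-13, against 24896, 24264 and 25401 with vehicle (log2 difference -0.92 ± 0.037; adjusted p = 2.2e-12).

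**Figure D5:**
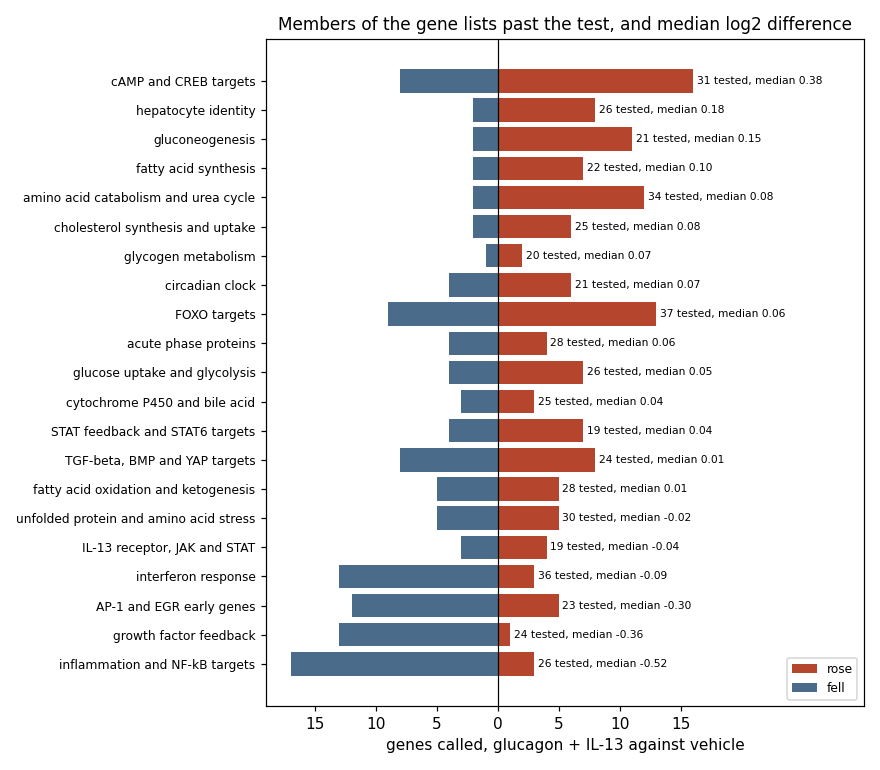
Members of 21 gene lists called with glucagon and IL-13 against vehicle, as numbers that fell (blue, left of 0) and rose (red, right of 0), with the number tested and the median log2 difference beside each bar. cAMP and CREB targets are at the top with 16 rises and 8 falls, and inflammation and NF-κB targets at the bottom with 17 falls and 3 rises.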

How the data were processed

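RNA of the 15 libraries was sequenced as single-end TruSeq libraries, aligned to mm10 with TopHat 1.3.2 and quantified with Cufflinks 2.0.2, per the submitters' processing notes. The gene annotation and a strand setting are not given in the sources used here, so antisense and overlapping genes cannot be told apart. The deposited main table is a signal (estimated reads, rescaled library by library), and dividing by the step of 0.797 to 1.25 gave whole reads within 0.1 for 98.3% to 99.0% of values under 20 reads. The authors also deposited FPKM values, used only as an alternative. Of 24347 entries, 1285 are small RNA and 27 have a date for a symbol. The other sheets hold the same values without small RNA.

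The 12703 genes that reached 10 scaled reads in 3 or more of the 15 libraries were fitted with limma 3.58.1 in R 4.3.3 on log2(scaled reads + 1), with group as the only term, all 15 libraries and a robust variance trend. P-values were adjusted by Benjamini-Hochberg over all tested genes, with a threshold of 0.05. The pseudocount of 1 understates changes of low genes. The fit was also run on simulated data. These gave every library the same added noise and so did not copy how vehicle library a stood apart. Members and gene lists were chosen with earlier results of these data known. Named genes were 18 fixed genes, the 12 largest rises and 12 largest falls without overlap and with a mean of at least 100 scaled reads, the members of the back, past and both-signals sets by the same mean (8, 5 and 8 per side), and up to 4 called members of each list; genes part of the way back with the least distance left, and list members beyond these, were added after values were seen. Predicted, small RNA and near-identical copy genes were not named, and 1 of the 12 largest rises and some list members are not reported here. Symbols of 12132 of the 12702 named tested genes matched RefSeq, and 9684 had a promoter sequence of GRCm38.p6. Alternatives are given in the closing section.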

Additional observations from a re-analysis of the deposited data

How the results depend on the processing

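The number of genes called with glucagon and IL-13 against vehicle was 2613 and stayed between 2438 and 2768 under other pseudocounts, filters, scalings, FPKM or a plain variance trend. Fitting only the groups compared gave 1551, where fewer libraries estimate the spread. Leaving out 1 library at a time gave 1929 to 2919 called genes, 7 to 12 genes back at vehicle and 78 to 104 genes displaced only with both signals. The count of genes back at vehicle was 9, and became 43 with a margin of 1.5-fold, 153 with no smallest glucagon effect and 0 with a smallest effect of 2-fold, which left 265 genes to follow. The calls of 148 genes were followed, some of them, such as Klb and Cemip, chosen after their values were seen. Of the 148, 121 kept their side of the threshold under all alternatives that could be fitted (up to 15) and 27 did not. None of the 2214 values reversed a called direction. Glucagon with IL-13 against glucagon alone called 728 genes in the fit of 15 libraries and 1218 when vehicle library a was left out of it. Their own 6 libraries gave 892 without a replicate block and 1350 with one. Same-numbered libraries deviated together for numbers 1 and 2 (r = 0.306 and 0.486 over 9475 genes) and not for 3 (r = -0.115), so the numbers were not taken to pair the samples. No paired analysis was possible against vehicle because the numbers of the vehicle columns could not be tied to single samples. The count tests planned as alternatives, edgeR and DESeq2, were not run, because the deposited values include fractions of a read and were kept as a scaled signal, although most low values came back as whole reads. Whether a count model would call the same genes is therefore not known. Depth limits genes under 10 scaled reads, which were not tested.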

Other observations

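Some genes outside the naming rule, chosen after their values were seen, add to the net state. Klb, the coreceptor through which hepatocytes can sense FGF21 and related hormones, had 210.2, 213 and 185 scaled reads with glucagon and IL-13, 128, 133 and 119 with glucagon alone and 36.7, 54.2 and 45.6 with vehicle, and stood at a log2 difference from vehicle of 2.14 ± 0.12 with both signals (limma, adjusted p = 1.8e-10). Cemip, a hyaluronan-degrading protein, had 175, 140.3 and 147 scaled reads with glucagon and IL-13, 68.5, 85.5 and 64 with glucagon alone and 1.05, 4.78 and 4.75 with vehicle (log2 difference from vehicle 5.24 ± 0.30; adjusted p = 2.2e-09). Il33, an alarm cytokine that activates type 2 lymphoid cells, had 207, 209 and 201 scaled reads with glucagon and IL-13, 147, 118 and 143 with glucagon alone and 86.1, 72.6 and 71.3 with vehicle (log2 difference from vehicle 1.42 ± 0.10; adjusted p = 5.9e-09). In Klb and Cemip the libraries with both signals exceeded all 6 others. Adora2b, an adenosine receptor that raises cAMP, had 267, 322 and 315 scaled reads with glucagon and IL-13, 391, 367 and 397 with glucagon alone and 955, 946 and 874 with vehicle (log2 difference from vehicle -1.62 ± 0.083; adjusted p = 5.1e-11). Afp, the fetal albumin relative, was part of the way back, with 164, 183 and 194 scaled reads with glucagon and IL-13, 313, 302 and 319 with glucagon alone and 64, 61.4 and 62.7 with vehicle. Irf5, an interferon regulatory factor, was part of the way back from below, with 535, 593 and 497 scaled reads with glucagon and IL-13, 363, 424 and 437 with glucagon alone and 851, 885 and 899.8 with vehicle.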
